A study of Mus musculus with 9 samples.

Results

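The 3 RUNX transcription factor genes *Runx1*, *Runx2* and *Runx3* and the gene of their shared partner, *Cbfb*, were 4 of the 32289 features counted in each of 9 single-cell RNA libraries of mouse forelimb buds. They were picked by symbol, with earlier results of these data on *Runx2* known, and each was found once in every matrix. Pairs of forelimb buds were taken at E10.75 (37-39 somites) from embryos of both sexes on the Swiss Albino background. The 3 genotypes, with 3 libraries each, were wild-type (Wt), *EC1CRM5*Δ/Δ (*E1C5*Δ/Δ) and *EC1CRM8*Δ/Δ (*E1C8*Δ/Δ), the last 2 homozygous for deletions of limb bud enhancers of *Grem1*, a secreted BMP antagonist. The deletions are present in every cell of the embryo, and both mutant forelimbs develop with 4 digits. Whole limb buds were dissociated without a sort, so that blood, vessels, muscle progenitors and ectoderm were sampled along with the mesenchyme.

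RUNX proteins bind DNA through a Runt domain, and CBFB, which does not touch DNA itself, binds that domain and strengthens the contact. *Runx1* is known for its part in blood formation, in particular in the first blood stem cells, megakaryocytes and myeloid cells. *Runx2* is the master regulator of osteoblasts and of maturing cartilage cells, and loss of a single copy causes cleidocranial dysplasia, in which the clavicles are small or missing. *Runx3* acts in sensory neurons, lymphocytes and some myeloid cells, and works beside *Runx2* in cartilage. In the mouse genome (mm10, GRCm38), *Runx1* lies at chr16:92601466-92826149 on the minus strand, *Runx2* at chr17:44495987-44814797 on the minus strand, *Runx3* at chr4:135120652-135177990 on the plus strand and *Cbfb* at chr8:105170674-105217989 on the plus strand.

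The RUNX genes each start from a distal and a proximal promoter, and the distal starts carry a pair of RUNX sites that shows their kinship. Below are the stretches with that pair, from RefSeq promoter windows of GRCm38.p6 that run from 250 bases before to 50 bases after a start site, 5′ to 3′ on the strand of the gene, with the pair in capitals.
Runx1, chr16:92826026-92826053, minus strand: ataaacAACCACAGAACCACAAgttggg
Runx2, chr17:44814584-44814611, minus strand: acaaacAACCACAGAACCACAAgtgcgg
Runx3, chr4:135120504-135120531, plus strand: tccctcAACCACAGAACCACAAggccag
The pair, AACCACAGAACCACAA, holds the core motif ACCACA at 2 places and begins at base 28 of the transcript in *Runx1* and base 23 in *Runx2*, counted from 1 at the listed start, and 135 bases upstream of the start in *Runx3*. Searched on both strands, it is found in 4 of 32851 promoter windows (0.0122%): the 3 shown here and that of *Gm16225*, a gene on the other strand beside *Runx3* whose window overlaps the *Runx3* stretch. The core motif alone is found in 5506 windows (16.8%), and these include none of the windows of *Cbfb* or of the proximal starts of *Runx1* and *Runx3*. A match of letters in a window is a description of sequence and not a measured binding site.

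The deposited matrices held 133086 barcodes, of which 44654 were kept as single cells, 592 to 8699 per library, with 21438933 to 306327723 unique molecular identifiers (UMIs, each standing for 1 captured RNA molecule). Wt replicate 3 (897 cells) and *E1C8*Δ/Δ replicate 1 (592 cells) were far smaller than the others. Cells were placed in a type by fixed marker lists that hold none of the 4 genes, which gave 37114 mesenchymal, 2188 blood (erythroid), 199 myeloid, 691 endothelial, 2441 muscle progenitor and 597 ectodermal cells, along with 37 of the megakaryocyte lineage. Markers left out of the gates were present where they belong: summed globin reached 331155 to 476253 counts-per-million (CPM) in blood against 453 to 1589 in mesenchyme, and the summed myeloid check genes (*Ptprc*, *Cd14*, *Lyz2*, *Fcer1g*) reached 928 to 2907 against 0.81 to 2.05. *Grem1* was at 29.2 to 43.2 CPM in the mesenchyme of Wt, 16.2 to 24.7 in *E1C5*Δ/Δ and 11.2 to 14.0 in *E1C8*Δ/Δ. Read from *Xist* and the Y chromosome, every Wt library was male and 4 of 6 mutant libraries were female, so that sex and genotype overlap in part. *Xist* stood at 30.9 CPM in Wt replicate 1 and 9.45 CPM in *E1C8*Δ/Δ replicate 3, both with Y-linked RNA and taken as male, against 649 to 937 CPM in the libraries taken as female. No pair of libraries shared more than 172 barcodes, at most 0.901% of the smaller library.

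Levels are given as CPM of the UMIs of 1 group of cells in 1 library, for groups of at least 20 cells. They describe 1 gene across groups and do not rank the 4 genes against each other. Differences between cell types were tested by edgeR's quasi-likelihood test on summed UMIs, with the library as a block and Benjamini-Hochberg adjustment over the 13592 genes tested, and 0.05 as the threshold. With cell types this distinct, most genes passed: 78.4% in blood against mesenchyme, 68.9% in myeloid cells, 71.9% in endothelium, 54.9% in ectoderm and 42.7% in muscle progenitors. The sizes of the differences are therefore more telling than the calls.

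Among the types with at least 20 cells in several libraries, *Runx1* was highest in myeloid cells. In the 5 libraries with at least 20 of them, it stood at 167 and 136 CPM in Wt replicates 1 and 2, 112 and 251 in *E1C5*Δ/Δ replicates 1 and 3, and 124 in *E1C8*Δ/Δ replicate 2. In the mesenchyme of all 9 libraries it stood at 0.652, 0.854 and 1.29 CPM as the lowest, median and highest value, so that the ranges lay far apart in every genotype. The difference was 7.69 on the log2 scale (SE 0.18). A *Runx1* UMI was seen in 183 of 199 myeloid cells, or 88.6 to 100% of them by library, against 941 of 37114 mesenchymal cells. After every cell was thinned to 10000 UMIs, the median shares were 63.8% and 0.907%. The 37 cells of the megakaryocyte lineage, too few per library to test, held 297 *Runx1* UMIs, or 181 CPM when pooled (95% exact Poisson interval 161 to 202, counting error only), against 145 CPM (137 to 153) for all myeloid cells pooled, and 31 of them had at least 1.

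*Runx1* was also higher in blood, ectoderm and muscle progenitors than in mesenchyme. In erythroid blood, where the gene is known to be turned down as red cells mature, it stood at 5.68 and 3.66 CPM in Wt, 6.91, 1.94 and 13.6 in *E1C5*Δ/Δ and 5.46 and 6.75 in *E1C8*Δ/Δ, 4.33 above mesenchyme on the log2 scale (SE 0.18). Globin took so large a part of these totals that, with globin left out, the same libraries read 10.5 and 6.74, 10.4, 3.73 and 22.0, and 10.3 and 12.9 CPM. The fitted difference rests on edgeR's TMM scaling, which sets blood higher than the totals do: the plain log2 ratio of mean CPM to mesenchyme in the same libraries was 2.88, and 3.67 with globin left out. Only 365 of 2188 blood cells had a *Runx1* UMI. In ectoderm, where RUNX1 is known from hair follicles and other epithelia, *Runx1* ranged from 5.43 to 12.1 CPM over 6 libraries (3.27, SE 0.24), and in muscle progenitors from 1.44 to 5.46 over 9 libraries (1.53, SE 0.19). The barcodes with the fewest UMIs read 0 to 2.79 CPM of *Runx1* (median 1.66), a range that holds the muscle median of 2.26 CPM, and the part of free RNA in the muscle value was not tested. Endothelium, the tissue that gives rise to the first blood stem cells at other sites of the embryo, held *Runx1* at 0.371 to 1.53 CPM in 7 libraries, which overlapped mesenchyme (0.12, SE 0.39, adjusted p = 0.785 by edgeR). The 2 small libraries had the highest *Runx1* levels in mesenchyme, 1.29 and 1.22 CPM.

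**Figure D1:**
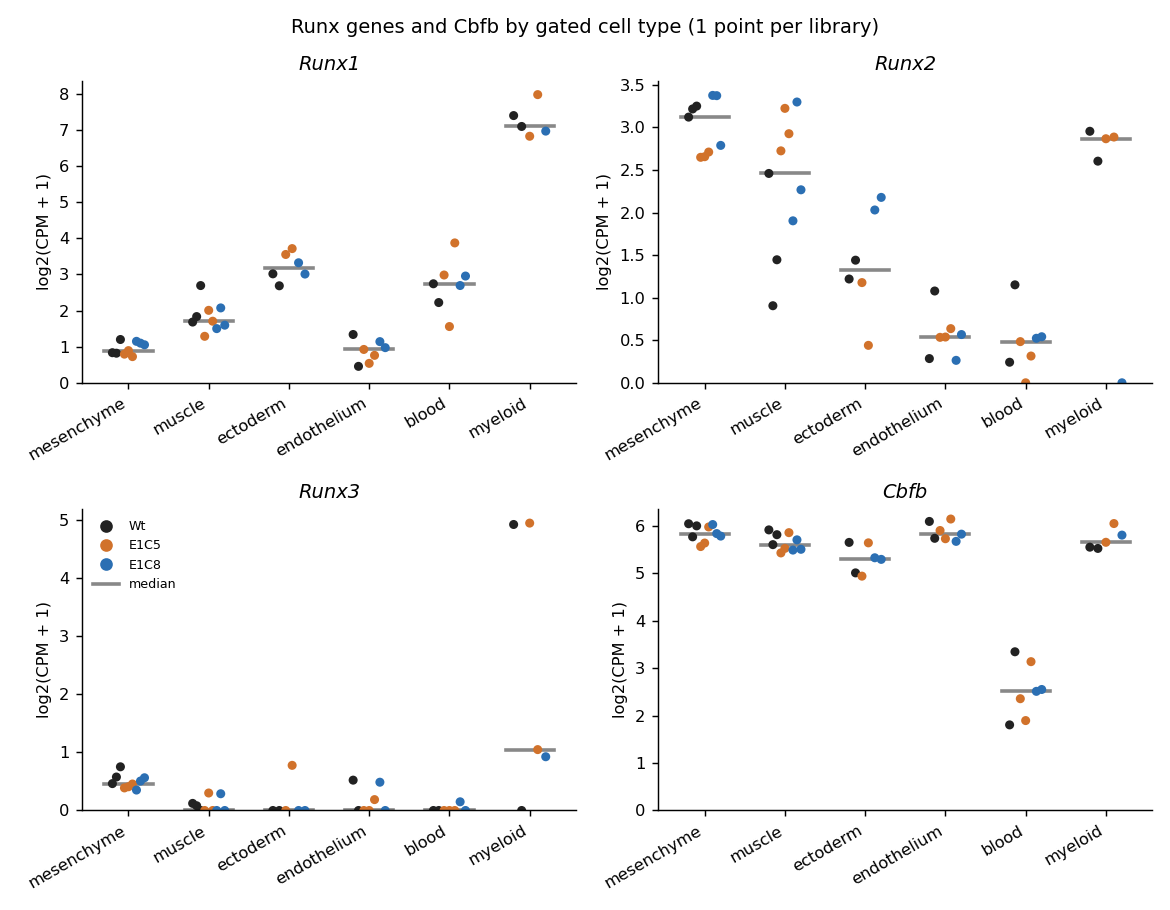
Level of the 4 genes by gated cell type, as log2(CPM + 1) on the y axis, with 1 point per library of at least 20 cells, coloured by genotype, and the median as a grey bar. *Runx1* peaks in myeloid cells at 112 to 251 CPM, *Runx2* is highest in mesenchyme, myeloid cells and muscle progenitors, *Runx3* reaches over 29 CPM in 2 myeloid sums, and *Cbfb* is lowest in blood.

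*Runx2* was higher in mesenchyme than in blood, endothelium and ectoderm, while muscle progenitors and myeloid cells did not pass against mesenchyme. In mesenchyme it read 7.71, 8.30 and 8.52 CPM in Wt, 5.28, 5.31 and 5.55 in *E1C5*Δ/Δ and 9.39, 9.37 and 5.92 in *E1C8*Δ/Δ. Blood held 0 to 1.22 CPM (log2 difference -2.77, SE 0.45, and -4.01 as a plain log2 ratio of mean CPM), endothelium 0.201 to 1.11 CPM (-3.47, SE 0.47) and ectoderm 0.357 to 3.53 CPM (-1.82, SE 0.43), all below the mesenchyme of the same libraries. Muscle progenitors ranged widely, from 0.873 to 8.85 CPM (-0.47, SE 0.22, adjusted p = 0.0907 by edgeR). Myeloid cells stood at 6.76, 5.08, 6.30 and 6.40 CPM in 4 libraries and at 0 in *E1C8*Δ/Δ replicate 2, and did not differ from mesenchyme beyond the error (-0.28, SE 0.47, adjusted p = 0.608 by edgeR).

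Free RNA in a cell suspension can put transcripts of one cell type into the droplets of another. The barcodes with the fewest UMIs, the lowest 20% of each library, which can be empty droplets or poor cells, read 3.69 to 9.65 CPM of *Runx2* and 347 to 527 CPM of *Prrx1*, a mesenchymal marker. With globin left out of the totals, the summed mesenchyme markers in blood were 3.26 to 10.3% of their mesenchymal level and those in endothelium 3.93 to 8.70%. *Runx2* stood at a median of 8.75% of its mesenchymal level in blood (0 to 27.0% by library) and 8.51% in endothelium (2.15 to 13.4%), beside marker medians of 6.26% and 4.87%. What part of these low values is free RNA was not tested. *Runx2* stood at a median of 64.5% in muscle progenitors (10.5 to 157% by library) and 87.7% in myeloid cells (0 to 119%). The mesenchyme markers were at a median of 10.0% and 3.99% there.

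*Runx3* was scarce in all gated types, with more of it in some myeloid cells. In mesenchyme it read 0.378, 0.490 and 0.684 CPM in Wt, 0.309, 0.327 and 0.371 in *E1C5*Δ/Δ and 0.276, 0.421 and 0.478 in *E1C8*Δ/Δ. In myeloid cells it read 29.3 and 0 CPM in Wt, 29.8 and 1.07 in *E1C5*Δ/Δ and 0.899 in *E1C8*Δ/Δ, so that the libraries of both Wt and *E1C5*Δ/Δ fell far apart. The difference from mesenchyme passed (4.60, SE 0.61), but it rested on 15 of 199 cells with 93 *Runx3* UMIs between them. In Wt replicate 1, 34 of the 39 UMIs came from 1 cell, while in *E1C5*Δ/Δ replicate 1 the 52 UMIs came from 10 of 29 cells, none with more than 9. The other gated types held few: 1 UMI in all 2188 blood cells, 5 in endothelium, 5 in muscle progenitors and 2 in ectoderm. *Runx3* passed as lower than in mesenchyme in blood and in muscle progenitors, with plain log2 ratios of mean CPM of -4.67 and -2.64. The blood call, on 1 UMI, was lost with DESeq2 (-2.31) and with no doublet removal (-1.49). The 785 cells that passed no type's threshold held 44 *Runx3* UMIs in 15 cells, and 599 cells left out with mixed scores held 14 in 6 cells. The barcodes with the fewest UMIs read 0 to 0.910 CPM of *Runx3*, and the mesenchymal level lies in that range as well.

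*Cbfb*, which all 3 RUNX proteins need, was lowest in blood. In mesenchyme it read 64.9, 53.4 and 62.9 CPM in Wt, 46.2, 48.7 and 61.9 in *E1C5*Δ/Δ and 64.1, 56.1 and 54.0 in *E1C8*Δ/Δ. Blood stood at 2.49 and 9.16 CPM in Wt, 4.12, 2.72 and 7.79 in *E1C5*Δ/Δ and 4.70 and 4.86 in *E1C8*Δ/Δ (log2 difference -2.20, SE 0.12, with TMM scaling, and -3.43 as a plain log2 ratio of mean CPM, or -2.60 with globin left out). Blood thus did not overlap any other type. With globin left out of the totals, the 7 blood sums read 4.59 to 16.8 CPM, still under all others. On that scale *Cbfb* in blood was a median of 15.7% of its mesenchymal level (7.06 to 31.5% by library), where the mesenchyme markers were at 6.26% (3.26 to 10.3%), and the barcodes with the fewest UMIs read 62.6 to 95.8 CPM of *Cbfb*. The part of free RNA in the *Cbfb* of blood was not tested. Myeloid cells (45.0 to 65.1 CPM) and muscle progenitors (42.0 to 59.2 CPM) did not pass against mesenchyme, while ectoderm (29.7 to 49.2 CPM) was lower (-0.52, SE 0.10) and endothelium (49.9 to 69.6 CPM) higher (0.21, SE 0.084), a call lost with DESeq2 (0.22, adjusted p = 0.058), with no filter on low counts in edgeR (0.20, adjusted p = 0.0561), and without *E1C5*Δ/Δ replicate 1 or 3 (0.17 and 0.18). The plain log2 ratio of mean CPM between endothelium and the mesenchyme of the same libraries was only 0.073. *Cbfb* had a UMI in 27716 of 37114 mesenchymal cells and in 163 of 199 myeloid cells.

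For each gene the types were ranked by their median and neighbours in the order compared within libraries by a two-sided exact sign-flip permutation test over libraries, 20 pairs in all. None passed after adjustment (smallest adjusted p = 0.156), and with 5 to 7 libraries these exact tests can reach no smaller p than 0.0625 to 0.0156. *Runx1* was higher in myeloid cells than in ectoderm in 5 of 5 libraries and *Cbfb* higher in ectoderm than in blood in 6 of 6.

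Within the mesenchyme, *Runx2* was concentrated in the anterior-proximal cells. The 9 regions were gated by short lists of patterning genes without *Runx2*, many of them signature genes of the study's clusters of these cells. The study found *Runx2* most enriched in its anterior-proximal cluster. The regional values here come from the same cells and are not independent of that result. The lists placed 31433 of 37114 mesenchymal cells, with 9.25% of cells within 0.1 of the threshold on their mean z-score. In cells of the list *Pax1*, *Pax9*, *Alx4*, *Hoxb3* and *Hoxb5*, genes of the anterior limb bud base and the shoulder girdle, *Runx2* read 48.7, 45.8 and 56.0 CPM in Wt, 35.0, 32.7 and 48.2 in *E1C5*Δ/Δ and 52.7, 39.9 and 22.6 in *E1C8*Δ/Δ. Next came the list of *Emx2*, a scapula gene (with *Gria2* and *Ntn1*), with 20.3, 16.3 and 6.29 CPM in Wt, 12.4, 20.0 and 19.1 in *E1C5*Δ/Δ and 36.0, 19.9 and 27.0 in *E1C8*Δ/Δ. The proximal list of *Gsc* (7.02 to 13.8 CPM) and the chondrogenic core of *Sox9* and *Col2a1* (4.59 to 20.2 CPM) followed. All other regions lay lower in all 9 libraries: posterior cells with *Shh* and *Hand2* at 1.44 to 3.00 CPM, autopod cells with *Hoxa13* and *Hoxd13* at 0.823 to 3.18, peripheral cells with *Lhx2* and *Msx1* at 0.615 to 1.78, zeugopod cells with *Hoxa11* and *Hoxd11* at 0.704 to 1.73 and the *Osr2* list at 0 to 1.55.

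Each region was tested against the mean of the other 8 by edgeR on 13198 genes, with the library as a block, and *Runx2* passed in all 9. It was higher by 3.71 on the log2 scale in anterior-proximal cells (SE 0.093), where 32.9% of genes passed in either direction, by 2.41 in *Emx2* cells (SE 0.11), where 51.4% passed, by 1.44 in *Gsc* cells (SE 0.12), where 61.8% passed, and by 1.40 in the core (SE 0.12), where 64.6% passed. The lower regions ran from -1.11 in the autopod (SE 0.20, 60.7% of genes passed) and -1.23 in posterior cells (SE 0.18, 39.7%) over -1.88 in peripheral cells (SE 0.17, 47.6%) and -2.20 in the zeugopod (SE 0.18, 58.7%) to -2.54 in *Osr2* cells (SE 0.21, 41.2%). Anterior-proximal cells were a median of 5.89% of the mesenchyme and held a median of 38.7% of its *Runx2* UMIs (22.7 to 47.6% by library). The *Emx2* cells, 7.86% of the mesenchyme, held 25.2% of them (2.58 to 34.7%). The 5 regions with low levels held at most 2.6% each at the median. Of 32 neighbour pairs in the regional orders of the 4 genes, none passed after adjustment (smallest adjusted p = 0.0625, exact sign-flip permutation). With 9 libraries the smallest p of this test is 0.0039, so that 1 pair alone could not pass the adjustment over 32. The neighbours were also set by the medians of these same values. For *Runx2* the anterior-proximal level was above that of *Emx2* cells in 8 of 9 libraries (adjusted p = 0.0833, exact), core and *Gsc* cells could not be told apart (core higher in 3 of 9), and *Gsc* cells were above posterior cells in 9 of 9 (adjusted p = 0.0625, exact).

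**Figure D2:**
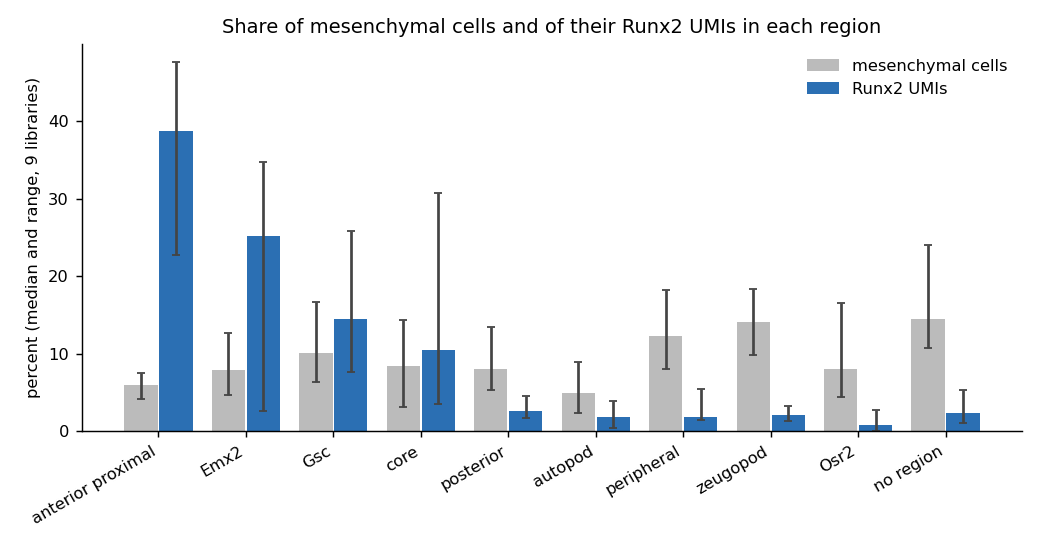
Share of mesenchymal cells (grey) and of mesenchymal *Runx2* UMIs (blue) in each region, in percent on the y axis, as the median bar and the range over 9 libraries. Anterior-proximal cells are 5.89% of cells with 38.7% of the UMIs, while the regions from posterior to *Osr2* hold a smaller share of the UMIs than of the cells.

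The other members were spread otherwise over the same regions. *Runx3*, very low throughout, was highest in autopod cells (median 0.928 CPM, log2 difference 1.63, SE 0.26) and posterior cells (median 0.706 CPM, 1.12, SE 0.24), followed by the zeugopod (0.57, SE 0.24, adjusted p = 0.0316 by edgeR, lost at a minimum of 1000 genes per cell with 0.40 and without Wt replicate 1 or *E1C8*Δ/Δ replicate 2 or 3 with 0.39 to 0.54), and lower in the core (-1.23, SE 0.37) and in peripheral cells (-1.06, SE 0.30). *Runx1* was higher in peripheral cells by 0.77 (SE 0.17), in posterior cells by 0.62 (SE 0.19), in the autopod by 0.54 (SE 0.23) and in the zeugopod by 0.48 (SE 0.17), with medians of 1.01 to 1.36 CPM. The *Runx1* call in the autopod was lost when any of 6 single libraries was left out, and that in the zeugopod with no doublet removal (0.27). It was lower in *Osr2* cells (-0.98, SE 0.25) and *Emx2* cells (-0.65, SE 0.25), the latter call lost at a minimum of 1000 genes per cell (-0.46) and without Wt replicate 2 (-0.58) or *E1C8*Δ/Δ replicate 2 (-0.61). The ranges of *Runx1* and *Runx3* over libraries overlapped widely between the regions. The barcodes with the fewest UMIs read 0 to 2.79 CPM of *Runx1* and 0 to 0.910 CPM of *Runx3*, ranges that hold the levels of both genes in the whole mesenchyme. The part of free RNA in their regional values was not tested. *Cbfb* moved least, by -0.11 in peripheral cells (SE 0.029) to 0.089 in the zeugopod (SE 0.028).

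**Figure D3:**
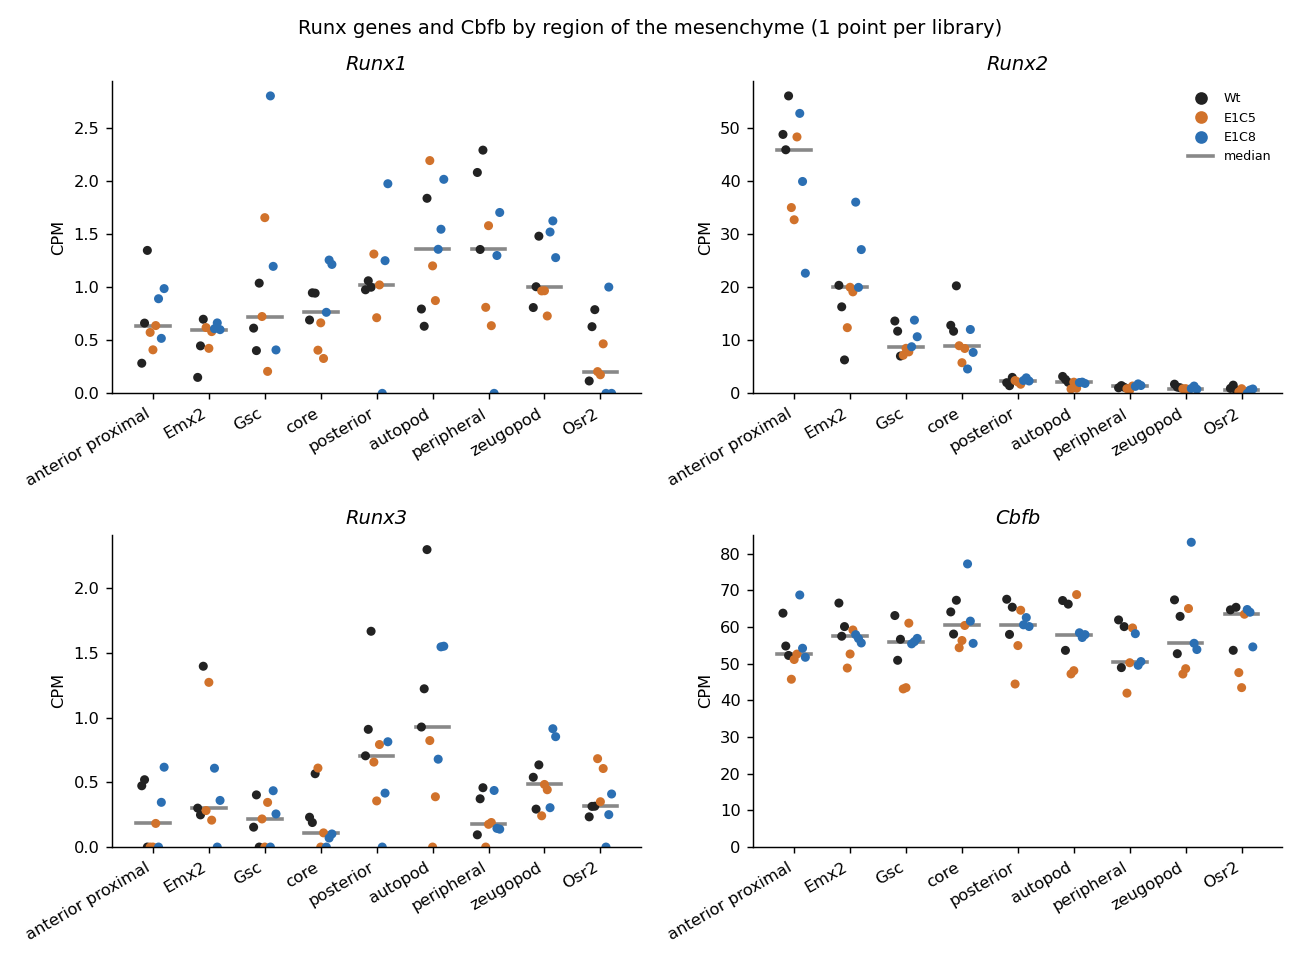
CPM of the 4 genes in 9 regions of the mesenchyme, 1 point per library coloured by genotype, with the median as a grey bar, and regions in the order of the *Runx2* median. *Runx2* falls from 22.6 to 56.0 CPM in anterior-proximal cells to 0 to 1.55 CPM in *Osr2* cells, while *Runx1* and *Runx3* stay under 3 CPM and *Cbfb* is near level.

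The positional scores of the study, which rank all mesenchymal cells along the limb axes by 4 genes each, were read without region gates. From the bottom to the top 20% of cells by the proximal score (*Rarb*, *Irx3*, *Meis2*, *Pkdcc*), mean *Runx2* rose from 1.25 to 25.1 CPM, and from the bottom to the top 20% by the anterior score (*Alx4*, *Boc*, *Pax1*, *Sox6*) from 2.06 to 22.3 CPM, each in 9 of 9 libraries. It fell from 13.8 to 1.5 CPM along the distal score (*Cyp26b1*, *Sall3*, *Lmo2*, *Wnt5a*) and from 10.4 to 2.59 CPM along the posterior score (*Hand2*, *Osr1*, *Shh*, *Prdm1*), again in 9 of 9. In a two-sided exact sign-flip permutation test over libraries, adjusted over 16 comparisons, all 4 had the smallest p the 9 libraries allow, 0.0039 (adjusted p = 0.0104). This test was run for the 4 genes of this report only. The share of all genes that would pass between the ends of a score was not measured, so a pass may be common here. *Runx1* rose along the distal score from 0.676 to 1.34 CPM (9 of 9 libraries, adjusted p = 0.0104, exact) and fell along the proximal one from 1.34 to 0.734 CPM (adjusted p = 0.0139, exact). *Runx3* rose from 0.275 to 0.661 CPM along the distal score (9 of 9, adjusted p = 0.0104, exact) and from 0.265 to 0.586 CPM along the posterior score (8 of 9, adjusted p = 0.0139, exact). It fell along the proximal score from 0.609 to 0.342 CPM and along the anterior score from 0.502 to 0.257 CPM. Both falls passed, but each call was lost when any of several single libraries was left out. *Cbfb* went from 54.9 to 59.2 CPM along the distal score (8 of 9, adjusted p = 0.0139, exact). The genes of the region lists and of the scores overlap in part, so these are not independent of the regional values.

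**Figure D4:**
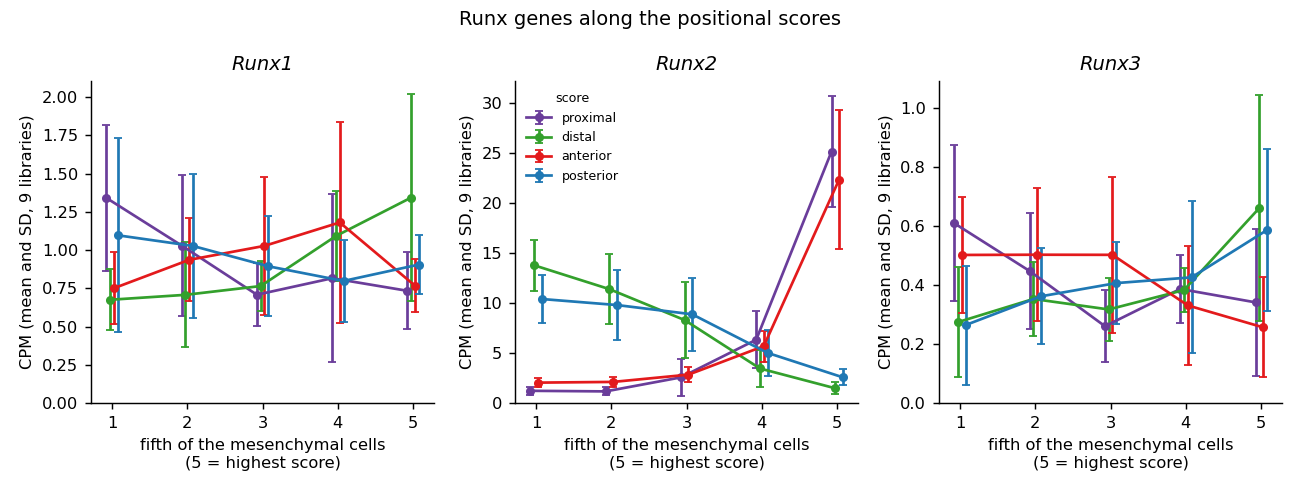
Mean CPM of *Runx1*, *Runx2* and *Runx3* with SD over 9 libraries on the y axis, in 5 equal parts of the mesenchymal cells along the proximal, distal, anterior and posterior scores on the x axis. *Runx2* climbs in the top 20% of the proximal (25.1 CPM) and anterior (22.3 CPM) scores, and *Runx3* is highest in the top 20% of the distal score (0.661 CPM). *Runx1* reads 1.34 CPM both there and in the bottom 20% of the proximal score.

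The genes whose levels most resembled each member were sought among genes outside the gate lists, as a description with no test. Over 81 sums per library and region, the log2(CPM + 1) of *Runx2* was closest to *Plxna2*, a semaphorin co-receptor (Pearson's r = 0.908), the Hox genes *Hoxc5* (0.894) and *Hoxb4* (0.890), *Gm15050* (0.892) and *Svil* (0.881), out of 10213 genes. Over 43 sums per library and cell type and 11803 genes, *Runx1* was closest to *Cebpb*, a myeloid transcription factor (0.955), and *Runx3* to *Lilr4b* (0.943), *Clec4d* (0.921) and the MHC class II gene *H2-Aa* (0.905). *Cbfb* was closest to *Sept9* (0.982) and *Sh3bgrl* (0.981). The points share libraries and depth, and for *Runx1* and *Runx3* the order is set by the few myeloid sums.

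The question of the genotypes is whether the loss of *Grem1* enhancers goes along with a change in these genes. In the mesenchyme as a whole, none of the 4 passed in the mutants together against Wt, where 2.29% of 16273 genes did, nor in *E1C5*Δ/Δ (1.45%), in *E1C8*Δ/Δ (9.66%) or between the mutants (9.98%), in edgeR fits over all 9 libraries. *Runx2* came nearest. Its 3 *E1C5*Δ/Δ values (5.28 to 5.55 CPM) lay below all 3 Wt values (7.71 to 8.52 CPM), a log2 difference of -0.54 (edgeR, SE 0.15, adjusted p = 0.107), while *E1C8*Δ/Δ held 2 libraries above Wt and 1 below (-0.03, SE 0.15, adjusted p = 0.918). The difference between the mutants was 0.51 (SE 0.15, adjusted p = 0.0519 by edgeR). With DESeq2 in place of edgeR, *Runx2* passed in *E1C5*Δ/Δ (-0.54, adjusted p = 0.0233), where DESeq2 also called more of all genes than edgeR. *Runx2* passed as well in edgeR without *E1C8*Δ/Δ replicate 3 (-0.54, adjusted p = 0.041). These are alternatives in which the call changed, and not all that were run. With sex as a covariate, far fewer genes were called in *E1C5*Δ/Δ than in the main fit. Most *E1C5*Δ/Δ libraries were female and all Wt libraries male, so that sex and genotype overlap in part here. An exact permutation test of *E1C5*Δ/Δ (5.38 ± 0.15 CPM, SD, n = 3) against Wt (8.18 ± 0.42 CPM, SD, n = 3) gave p = 0.1, the smallest that 3 against 3 allows.

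The share of mesenchymal cells in some regions had different means by genotype, which were not tested, and anterior-proximal cells overlapped (5.72 to 6.62% in Wt, 4.18 to 6.47% in *E1C5*Δ/Δ and 5.60 to 7.53% in *E1C8*Δ/Δ). Core cells were 12.4 ± 1.70% of the Wt mesenchyme (SD, n = 3), 6.29 ± 2.74% in *E1C5*Δ/Δ and 9.08 ± 1.64% in *E1C8*Δ/Δ, and *Emx2* cells 5.76 ± 1.82%, 10.0 ± 2.56% and 8.77 ± 1.91%. In the same order, *Osr2* cells were 15.6 ± 0.86%, 8.08 ± 0.44% and 5.12 ± 0.87%, and autopod cells 8.51 ± 0.44%, 3.46 ± 1.04% and 5.31 ± 1.44%. Cells in no region were 12.0 ± 1.09%, 19.6 ± 4.74% and 15.1 ± 2.29%. When each of the 9 regions had equal weight, *Runx2* averaged 10.9 ± 0.60 CPM in Wt, 8.55 ± 1.17 in *E1C5*Δ/Δ (log2 difference -0.33, exact permutation p = 0.1) and 10.3 ± 1.86 in *E1C8*Δ/Δ (-0.09, exact permutation p = 0.8). This average leaves out the cells in no region, and its differences are of log2(CPM + 1). On that scale the whole mesenchyme gave -0.52 in *E1C5*Δ/Δ and -0.02 in *E1C8*Δ/Δ.

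Within the 4 regions of high *Runx2* level, no member passed in the mutants together against Wt, where edgeR called 0.146% of genes in anterior-proximal, 0.101% in *Emx2*, 0.214% in *Gsc* and 2.01% in core cells. The nearest was *Runx2* in the core, which read 12.8, 11.7 and 20.2 CPM in Wt, 8.96, 5.77 and 8.44 in *E1C5*Δ/Δ and 4.59, 12.0 and 7.70 in *E1C8*Δ/Δ, so that 5 of the 6 mutant libraries lay below all of Wt. The fitted difference of both mutants together was -0.73 (edgeR, SE 0.21, adjusted p = 0.1). The highest Wt value came from its small library. In anterior-proximal cells, where *Runx2* is highest, the difference was -0.39 (edgeR, SE 0.17, adjusted p = 0.317), and the ranges overlapped.

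*Runx1*, *Runx3* and *Cbfb* did not pass in the mesenchyme of both mutants together, at 0.03 (SE 0.20, adjusted p = 0.961), -0.38 (SE 0.23, adjusted p = 0.394) and -0.11 (SE 0.083, adjusted p = 0.482, all by edgeR). In blood, where 0.0104% of 9613 genes passed in the mutants together, *Runx1* (0.36, SE 0.37) and *Cbfb* (-0.14, SE 0.42) did not (adjusted p = 0.999 for both, edgeR). The *Cbfb* difference in blood changed direction when Wt replicate 2 was left out. Both *Runx2* and *Runx3* were too low there to be tested. In endothelium, where 0.00921% of 10860 genes passed, only *Cbfb* could be tested (-0.04, SE 0.14, adjusted p = 0.951 by edgeR). No test of genotype was run in myeloid cells, of which 1 *E1C8*Δ/Δ library held at least 20. A p that misses the threshold in so few libraries does not show that the levels were alike.

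**Figure D5:**
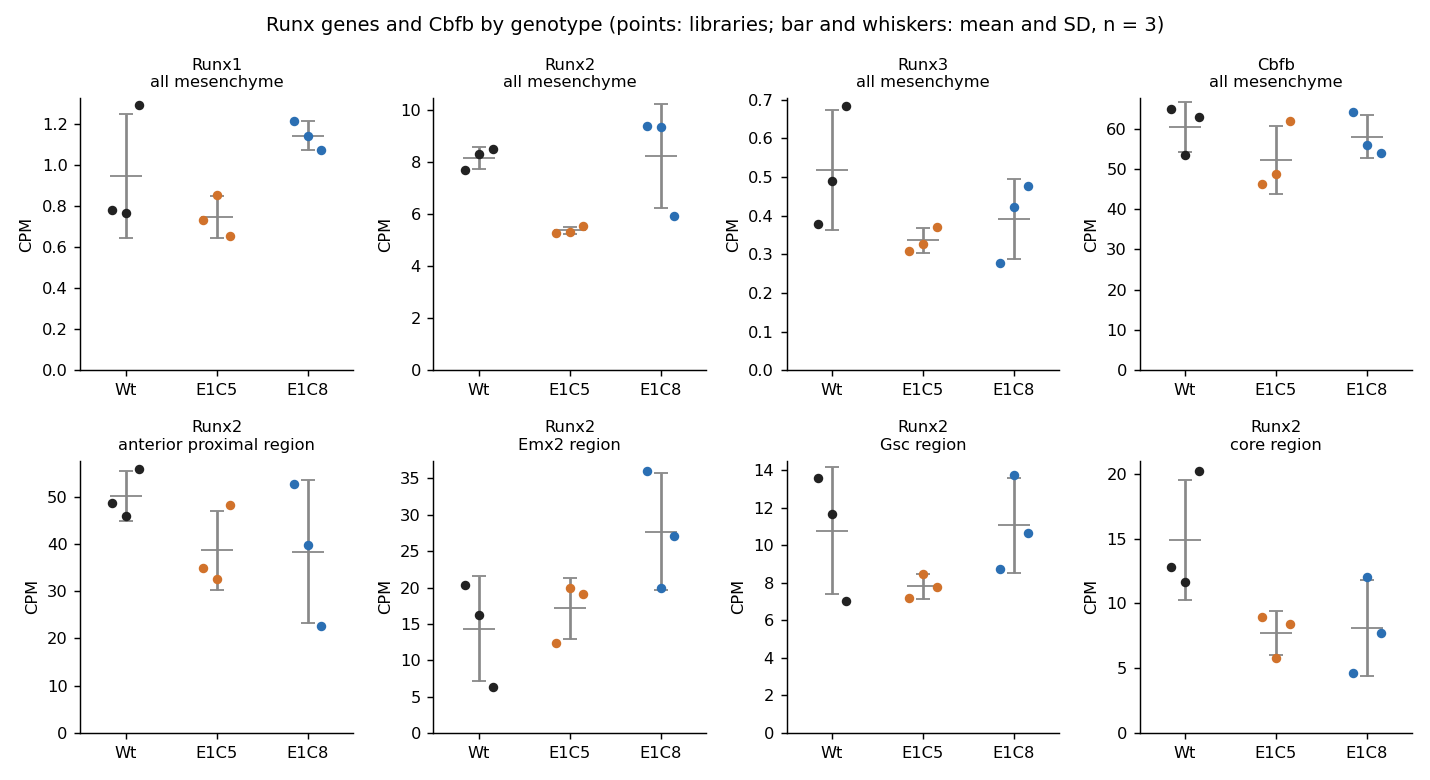
CPM by genotype with 1 point per library and the mean and SD (n = 3): top row, the 4 genes in all mesenchymal cells, and bottom row, *Runx2* in the 4 regions of high level. The 3 *E1C5*Δ/Δ libraries lie below the 3 Wt libraries for *Runx2* in all mesenchyme (5.38 against 8.18 CPM on average), and the groups overlap in the anterior-proximal, *Emx2* and *Gsc* regions.

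Genes that work with the RUNX factors were followed in 3 lists. Of the 20 cofactors and regulators of RUNX proteins, all tested, none passed in the mutant mesenchyme of both genotypes together (median log2 difference -0.16, against -0.01 over all genes). In *E1C5*Δ/Δ, where 1.45% of all genes passed, 1 fell, the ETO family corepressor *Runx1t1* (-0.67, SE 0.098, adjusted p = 0.0103 by edgeR). In *E1C8*Δ/Δ, where 9.66% passed, 3 fell, the ETO family member *Cbfa2t3* (-0.93, SE 0.20), the ubiquitin ligase *Smurf1* (-0.41, SE 0.11) and *Zfp521* (-0.36, SE 0.10), and *Twist1*, whose protein restrains RUNX2, rose (0.38, SE 0.094). With sex as a covariate these 4 *E1C8*Δ/Δ calls were lost (adjusted p = 0.0798 to 0.144 by edgeR) while that of *Runx1t1* held, and without both small libraries all 5 were lost (adjusted p = 0.0584 to 0.131 by edgeR). The differences kept their direction and much of their size: *Cbfa2t3* stood at -1.02 with sex and -1.07 without the small libraries, *Smurf1* at -0.45 and -0.47, *Zfp521* at -0.45 and -0.40, *Twist1* at 0.40 and 0.33 and *Runx1t1* at -0.82 and -0.63. *Twist1* in both mutants together stood at 0.33 (SE 0.082) and did not pass (adjusted p = 0.0598 by edgeR). Across cell types, 17 of 20 were lower in blood than in mesenchyme and 2 higher, *Cbfa2t3* (2.36) and *Hipk2* (2.30), where 78.4% of all genes passed, and in myeloid cells 17 were lower and 3 higher, where 68.9% passed.

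Of 18 blood genes that act with or after *Runx1*, 15 were tested across types, and 12 were higher in myeloid cells than in mesenchyme and 3 lower (median 5.14 on the log2 scale, against -0.11 over all genes, of which 68.9% passed). The largest were *Mpo*, the granule enzyme myeloperoxidase (11.9, SE 0.20), *Spi1*, the gene of the myeloid factor PU.1 (11.8, SE 0.31), *Ptprc*, which encodes CD45 and was also a gate check (11.5, SE 0.28), and *Csf1r*, the macrophage growth factor receptor (11.1, SE 0.16). In blood, where 78.4% of all genes passed, 5 were higher and 4 lower, led by the erythroid factors *Gfi1b* (9.24) and *Tal1* (9.16). In endothelium, where 71.9% of all genes passed, 10 were higher and 1 lower, led by *Cd34* (9.77), *Lyl1* (6.40) and *Tal1* (5.80). None passed in the mutant mesenchyme against Wt.

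Of 18 skeletal genes that act with or after *Runx2*, 14 were tested between genotypes. In *E1C5*Δ/Δ, where 1.45% of all genes passed, 2 fell, *Dlx6*, a homeobox gene upstream of bone formation (-1.20, SE 0.25), and the collagen gene *Col1a2* (-0.77, SE 0.16). In *E1C8*Δ/Δ, where 9.66% passed, 4 rose and none fell: *Dlx6* (0.90, SE 0.23), *Msx2*, a BMP target (0.88, SE 0.13), *Vegfa* (0.54, SE 0.15) and *Atf4* (0.37, SE 0.078). Only the call of *Msx2* held with sex as a covariate (0.93, adjusted p = 0.0422 by edgeR) and without both small libraries. The other 3 *E1C8*Δ/Δ calls and both *E1C5*Δ/Δ calls were lost with either (adjusted p = 0.0848 to 0.349 with sex and 0.0728 to 0.17 without the small libraries, by edgeR). The differences of these were, in that order, 1.09 and 0.99 for *Dlx6*, 0.36 and 0.39 for *Vegfa* and 0.38 and 0.34 for *Atf4* in *E1C8*Δ/Δ, and -0.96 and -1.16 for *Dlx6* and -0.73 and -0.57 for *Col1a2* in *E1C5*Δ/Δ. *Dlx6* was low, at a mean of 0.63 CPM over the 9 libraries. In the anterior-proximal cells, where *Runx2* peaked, 7 of the 12 tested were higher than in the other regions and 1 lower (median 0.50, against -0.003 over all genes, of which 32.9% passed). Among them were *Msx2* (2.52, SE 0.14), *Col1a2* (0.86, SE 0.059) and *Spp1*, the gene of osteopontin (0.83, SE 0.31, a call lost without any of 3 single libraries, with 0.32 without *E1C5*Δ/Δ replicate 3, and with no doublet removal or a minimum of 1000 genes), while *Sox9*, the cartilage factor, was lower (-0.42). The count was not particular to this region. In *Gsc* cells 7 of 12 were also higher and 1 lower (median 0.31, where 61.8% of all genes passed). In peripheral cells, where *Runx2* was low, 6 were higher and 6 lower (47.6% of all genes passed). *Ibsp*, *Mmp13* and *Col10a1*, singled out after their values were seen, stayed at or under 0.02 CPM in the mesenchyme of every library, and *Sp7*, the osteoblast factor that follows *Runx2*, at 0.47 to 1.03 CPM, while *Spp1* ran from 0.27 to 1.86 CPM and *Alpl*, the alkaline phosphatase of bone, from 0.753 to 1.32 CPM.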

How the data were processed

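Each library held the cells of 1 pair of forelimb buds, prepared with droplet 3′ chemistry that counts UMIs and keeps strand, so that the antisense genes within *Runx2* were counted apart. The values are counts: per the labels and the study's methods, the authors made the deposited matrices of UMI counts per gene and barcode with Cell Ranger 6.0.1 on mm10, and nothing was normalised before deposit. The submitters' processing notes also name Seurat 4.3.0.1, whose output is not used here. 

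From these counts, barcodes with more than 2500 genes, under 200000 UMIs and under 10% mitochondrial UMIs were kept (52432), and 7778 likely doublets were removed by the share of artificial doublets among nearest neighbours, at 0.8% per 1000 barcodes. A cell joined a type where its marker UMIs per 10000 passed a threshold (mesenchyme 4, blood 10, myeloid 6, endothelium 8, megakaryocyte lineage 20, muscle 3, ectoderm 5) and its score relative to the threshold was at least 2 times that of any other type. Left out were 785 cells that passed no threshold and 599 that passed one but scored too near another type. These thresholds were set where the marker scores of all cells separate, after those scores were seen. A mesenchymal cell joined the region whose list had its highest mean z-score, if above 0.5. UMIs were summed per library and group of at least 20 cells. Genes on X and Y were left out of tests.

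Sums were tested in R 4.3.3 with edgeR 4.0.16 (TMM, filterByExpr, quasi-likelihood), all genotypes sharing 1 estimate of the spread, and alternatively with DESeq2 1.42.0. Positional ends were compared on log2(CPM + 1) by exact permutation over libraries. Nothing says that libraries of a group came from separate litters, so p-values measure only the spread between these libraries. Intervals cover counting error only. The tests were also run on simulated counts in which 200 genes above a minimum mean count changed by 1 on the log2 scale. Between both mutants together and Wt, 66% of these were recovered in mesenchyme, 44% in blood and 69.5% in endothelium. Between myeloid cells and mesenchyme, 77% were recovered. False calls numbered 8, 6, 14 and 10 in that order. The simulated means held no other differences between groups, and the contrasts of each mutant alone were not simulated. Replicate levels correlated at r = 0.978 to 0.995 within groups.

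The 4 genes, the 3 lists and the region lists were chosen with earlier results of these data known, among them the level of *Runx2* in clusters, so that its regional values here are not independent of them. Named from each list are at most the 4 called genes of largest change and the highest gene not called, apart from 1 gene that is not reported here. Alternatives were DESeq2, no filter on low counts, no doublet removal, thresholds halved or doubled, a minimum of 1000 genes, globin left out, at least 50 cells, a region threshold of 1, the top and bottom 10% by score, a sex covariate, a replicate block and each library left out. Leaving out both small libraries and weighting regions equally were added after the data were seen.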

Additional observations from a re-analysis of the deposited data

Results flagged for a closer look

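Between the mutants, 11 listed genes passed in the mesenchyme, of which the 9 that the naming rule takes are given here (edgeR, difference *E1C8*Δ/Δ minus *E1C5*Δ/Δ on the log2 scale, adjusted p from 0.0022 to 0.0425). The skeletal genes *Dlx6* (2.10, SE 0.25), *Dlx5* (1.69, SE 0.28), *Msx2* (0.88, SE 0.13) and *Col1a1* (0.74, SE 0.17) were higher in *E1C8*Δ/Δ. Among RUNX cofactors, the corepressor genes *Tle2* (0.82, SE 0.14) and *Runx1t1* (0.67, SE 0.098) were higher as well. Of the blood genes, *Gata2* (0.80, SE 0.21) and *Fli1* (0.35, SE 0.095) were higher and *Erg* was lower (-0.62, SE 0.17). With sex as a covariate the calls of *Gata2* (0.79) and *Erg* (-0.61) were lost at nearly the same size (adjusted p = 0.056 and 0.0625 by edgeR), and without both small libraries those of *Fli1* (0.31) and *Erg* (-0.63) (adjusted p = 0.122 and 0.0918 by edgeR). In that comparison 6 skeletal genes of 14 tested were called higher and none lower (median 0.52, against 0.002 over all genes), where 9.98% of all genes passed in either direction.

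Cells that joined no type also held *Runx1*. Of 785 cells that passed no type's threshold, 41 carried 260 *Runx1* UMIs, with 110 of the UMIs in Wt replicate 1. A further 599 cells passed a threshold but scored too near another type and were left out as mixed. Of these, 64 carried 121 *Runx1* UMIs, and they were not looked at further. Among the 785, the 18 cells with at least 3 *Runx1* UMIs, a group defined by *Runx1* itself and chosen after its values were seen, were found in 7 libraries. Pooled, they read 1821 CPM of *Mpo*, 1043 of *Srgn*, 241 of *Spi1*, 223 of *Myb*, 154 of *Cd34* and 135 of *Gata2*, genes of early blood and granulocyte cells, and 34.5 CPM of *Runx3*. The mesenchyme marker *Prrx1* stood at 13.2 CPM in them, against 102 CPM in the 744 cells of the 785 without *Runx1*. No test was made.

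No genotype has more than 3 libraries, so single libraries were not examined for outlying values.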

How the results depend on the processing

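Of 1538 alternative values for 103 main results, 1401 were taken as unchanged, and of 1524 for 99 named genes, 1362 were. A difference was unchanged where it kept its direction and side of the threshold. A count of called genes had to stay within 1.5 times of the main count, and a share of cells within the SD over libraries. The high *Runx1* of myeloid cells, the 4 leading regions of *Runx2* and the low *Cbfb* of blood kept direction and side of the threshold under every alternative run. The cause of each change below was not tested. Values are log2 differences unless named as counts or shares.

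With DESeq2, *Runx2* passed in *E1C5*Δ/Δ (-0.54) and between the mutants (0.51), *Cbfb* passed in posterior cells (0.074), and the calls of *Cbfb* in endothelium (0.22) and *Runx3* in blood (-2.31) were lost. The *Runx2* difference between the mutants also passed with a minimum of 1000 genes (0.51), gates halved (0.51), no doublet removal (0.49) and no filter (0.50). *Cbfb* passed in posterior cells with both small libraries left out (0.084), no doublet removal (0.071), no filter (0.083) and a region threshold of 1 (0.079), and in anterior-proximal cells with no doublet removal (-0.071). Calls were lost for *Cbfb* in endothelium with no filter (0.20), in *Gsc* (-0.062) and zeugopod (0.046) cells without both small libraries, for *Runx1* in *Emx2* cells with a minimum of 1000 genes (-0.46), in the autopod with that minimum (0.44) or without both small libraries (0.52) and in the zeugopod with no doublet removal (0.27), and for *Runx3* in blood with no doublet removal (-1.49) and in the zeugopod with 1000 genes (0.40).

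These small differences changed sign. *Atf4* in anterior-proximal cells went to -0.0086 with no doublet removal and -0.0138 with no filter, and *Yap1* there to 0.0147 without both small libraries and 0.0222 with 1000 genes. *Cbfb* went to 0.0013 in *Emx2* cells without both small libraries, and in the core to -0.0117 with 1000 genes, -0.0051 with no filter and -0.0218 with a region threshold of 1. In blood of *E1C8*Δ/Δ against Wt, *Cbfb* went to 0.147 with gates doubled, 0.163 with no doublet removal and 0.0072 with no filter. *Runx1* between the mutants in blood went to 0.0649 with DESeq2, 0.0102 with no filter and 0.19 with the sex covariate. In mesenchyme, *Runx1* in both mutants went to -0.0569 with 1000 genes, -0.0412 with no doublet removal and -0.0041 with equal regions, and along the anterior score to -0.048 with the top and bottom 10%. *Lmo2* between the mutants went to 0.0291 with 1000 genes and 0.0688 with no doublet removal, *Smad4* in *E1C8*Δ/Δ to 0.0206 with the sex covariate, *Runx1t1* in blood to 0.0331 with gates doubled, *Runx2* in *E1C8*Δ/Δ to 0.020 with no doublet removal, *Runx3* in *Osr2* cells to -0.068 with 1000 genes and *Runx3* in *E1C8*Δ/Δ to 0.0248 without both small libraries.

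Replicate numbers did not pair the libraries: deviations of same-numbered libraries from their group means correlated at -0.37 to 0.162, with 2 of 9 pairs above 0.1. Pairs that differed in both number and genotype ranged from -0.382 to 0.599, with 8 of 18 above 0.1. The source of these shared deviations was not tested. With the number as a replicate block, 131 genes were called in *E1C5*Δ/Δ, 757 in *E1C8*Δ/Δ and 102 in both, and *Cbfb* between the mutants in blood went to -0.18, *Runx1* there to 0.147, *Cbfb* in endothelium of *E1C5*Δ/Δ to -0.0077 and *Smad4* in *E1C8*Δ/Δ to 0.0011. The mesenchyme counts of called genes (236, 1572 and 373) moved to 619 in *E1C5*Δ/Δ and 1001 in both with DESeq2, to 373 in *E1C5*Δ/Δ with no filter, to 61, 544 and 47 without both small libraries, and to 11, 159 and 2 with the sex covariate.

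Leaving out 1 library at a time gave 56 to 274, 377 to 2072 and 115 to 898 genes. The ranges for *Cbfb* were 0.031 to 0.070 in the autopod, 0.171 to 0.240 in endothelium, 0.062 to 0.089 in posterior cells, -0.010 to 0.039 in the core and -0.026 to 0.119 in myeloid cells. By genotype they were -1.10 to 0.618 in blood of *E1C5*Δ/Δ, -0.828 to 0.940 of *E1C8*Δ/Δ and -0.965 to 0.779 of both (turned by Wt replicate 2), and -0.056 to 0.186 in endothelium of *E1C5*Δ/Δ and -0.160 to 0.082 of both. Those for *Runx1* were -0.804 to -0.581 in *Emx2* cells, 0.442 to 0.762 in the autopod, -0.172 to 0.051 in the core, -0.100 to 0.297 in endothelium, -0.095 to 0.249 in mesenchyme of both, -0.157 to 0.853 in blood of *E1C5*Δ/Δ, -0.274 to 0.505 between the mutants there and -0.028 to 0.055 by the anterior score. Those for *Runx2* were -0.595 to -0.500 in *E1C5*Δ/Δ, 0.396 to 0.689 between the mutants (past the threshold without *E1C8*Δ/Δ replicate 3 in both), -0.145 to 0.147 in *E1C8*Δ/Δ, -0.619 to -0.216 in muscle and -0.463 to 0.044 in myeloid cells. Those for *Runx3* were -0.158 to 0.277 in *Osr2* cells, 0.392 to 0.735 in the zeugopod, -0.300 to -0.225 by the anterior and -0.319 to -0.221 by the proximal score. *Atf4* gave -0.020 to 0.025, *Fli1* in *E1C8*Δ/Δ -0.096 to 0.015, *Lmo2* -0.130 to 0.099, *Runx1t1* in blood -0.245 to 0.079 and *Smad4* -0.118 to 0.061.

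Shares of cells with a UMI follow depth: thinned to 10000 UMIs, the median share fell to 63.8% for *Runx1* in myeloid cells, 3.8% for *Runx1* in blood, 5.07% for *Runx2* and 42.9% for *Cbfb* in mesenchyme.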

Other observations

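The myeloid cells with *Runx3* differed in other genes from those without it. In Wt replicate 1 and *E1C5*Δ/Δ replicate 1, the libraries that held nearly all such cells, 11 cells with at least 2 *Runx3* UMIs were set against the 47 with none. Of the 11, 9 came from *E1C5*Δ/Δ replicate 1 and 2 from Wt replicate 1, while most of the 47 came from Wt replicate 1, so that library and genotype cannot be told apart from *Runx3* in these pooled values. The cells with *Runx3* read 1608 CPM of *Cd74* against 10.9 and 781 CPM of *H2-Aa* against 1.94, both genes of antigen presentation by MHC class II, 3074 CPM of *Lyz2* (lysozyme) against 509, 645 CPM of *S100a4* against 53.5 and 192 CPM of the chemokine receptor gene *Ccr2* against 36.5. They read less of *Mpo* (8.92 against 269 CPM) and of *Mrc1*, a receptor of tissue macrophages (109 against 387 CPM), while other macrophage genes were higher in them: *C1qa* (1985 against 471 CPM), *C1qb* (1452 against 899.8), *Adgre1* (91.5 against 51.6) and *Csf1r* (328 against 242). *Runx1* stood at 116 and 135 CPM. The groups were defined by *Runx3* and chosen after its values were seen, and no test was made.

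*Runx2* in muscle progenitors read 4.50, 0.873 and 1.72 CPM in Wt, 5.61, 8.35 and 6.61 in *E1C5*Δ/Δ and 2.74, 8.85 and 3.82 in *E1C8*Δ/Δ, so that the 3 *E1C5*Δ/Δ libraries lay above all 3 Wt libraries there while they lay below them in mesenchyme. These values were singled out after they were seen, and no genotype comparison was made in this type.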
